A study of Mus musculus with 4 samples.

Results

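The genes described here encode small structural noncoding RNAs, RNAs of well under a kilobase that work as parts of RNA-protein particles and are not translated. They were selected on their symbols, as all rows named for small nucleolar RNAs (Snora and Snord), small Cajal body RNAs (Scarna), spliceosomal RNAs (Rnu), 7SK and signal recognition particle RNAs (Rn7s), Y RNAs (Rny) and RNase P RNA copies (Rprl), together with Rmrp, Rpph1 and Terc. That gave 54 of 22222 genes (0.243%), with no row under the Rn7s or Rny names. The family was chosen with earlier results of this contrast known, so the members' differences between the groups are given as a description.

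The libraries came from keratoacanthomas, skin tumours that can regress on their own, raised in mice by 20 weeks of the carcinogen DMBA. Both groups had that treatment, and RNA of Tomato+/P-cadherin+ sorted cells was sequenced from 2 mice kept on DMBA (0 weeks after) and from 2 other mice 1 week after it was stopped. The labels used here give neither strain nor age nor the driver of the Tomato reporter, and there was no tumour-free group. The title of the series names regression driven by Wnt and retinoic acid signalling, and the comparison asks what differs in the sorted cells 1 week after DMBA. RNA was depleted of ribosomal RNA, and the labels name no step that selects small RNAs.

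Small nucleolar RNAs guide chemical changes of ribosomal RNA. Box C/D RNAs direct methylation of the ribose and box H/ACA RNAs direct conversion of uridine to pseudouridine, and Cajal body RNAs do the same for spliceosomal RNAs. In mammals most are cut out of introns of host genes, many of which encode ribosomal proteins. RNase P RNA (Rpph1) is the catalytic subunit that trims the leader of precursor tRNAs, RNase MRP RNA (Rmrp) is its relative in ribosomal RNA processing, and Terc is the template RNA of telomerase.

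The sequences of the members on which the results turn are shown first, as given by GENCODE M21 for the GRCm38 build, which held all 54 members. RNase P RNA and its copy Rprl3 are shown because their reads can be told apart only where they differ. Capitals in Rpph1 mark bases that Rprl3 lacks or has differently, and capitals in Rprl3 mark bases that differ from Rpph1. Both lines begin at base 1 and cover the stretch that aligned, 257 of the 319 bases of Rpph1 and 236 of the 290 bases of Rprl3.
Rpph1: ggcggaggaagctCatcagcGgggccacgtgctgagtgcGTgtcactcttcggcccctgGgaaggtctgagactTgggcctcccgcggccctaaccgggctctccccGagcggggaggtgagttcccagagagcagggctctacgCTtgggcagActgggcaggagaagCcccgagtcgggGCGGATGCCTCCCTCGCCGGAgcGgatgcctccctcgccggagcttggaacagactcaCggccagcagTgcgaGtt
Rprl3: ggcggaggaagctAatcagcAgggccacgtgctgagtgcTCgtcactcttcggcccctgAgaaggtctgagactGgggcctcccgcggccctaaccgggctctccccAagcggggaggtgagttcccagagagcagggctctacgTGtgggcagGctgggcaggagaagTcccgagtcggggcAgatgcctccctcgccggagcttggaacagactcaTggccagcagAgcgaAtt
Over the 236 aligned bases 221 were the same, 93.6%, with 15 differences, and Rprl3 lacked a run of 21 bases that Rpph1 holds 2 times. The longest run without a difference was 37 bases. Rprl2 was about as close, with 93.2% (longest identical run 32 bases), and Rprl1 was less close, with 91.1% (27 bases). The sources used here do not give the length of the sequencing reads, so how many reads of Rpph1 could be placed on a copy was not tested.

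The guide RNAs are shown with the boxes that name their classes. In box C/D RNAs, capitals mark TGATGA in the first 30 bases and the last CTGA in the last 30 bases, both searched on the transcript strand only.
Snord17: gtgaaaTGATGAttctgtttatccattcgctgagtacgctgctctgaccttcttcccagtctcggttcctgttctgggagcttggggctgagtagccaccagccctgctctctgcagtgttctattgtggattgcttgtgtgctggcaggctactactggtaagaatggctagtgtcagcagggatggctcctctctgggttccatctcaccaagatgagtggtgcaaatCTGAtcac
Snord15b: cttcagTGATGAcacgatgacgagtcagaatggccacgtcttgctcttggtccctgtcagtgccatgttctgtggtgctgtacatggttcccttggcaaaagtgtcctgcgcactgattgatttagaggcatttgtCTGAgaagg
Snord22: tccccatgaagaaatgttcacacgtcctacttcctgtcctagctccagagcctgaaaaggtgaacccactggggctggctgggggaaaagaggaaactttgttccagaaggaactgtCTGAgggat
TGATGA stood in the first 30 bases of 10 of 15 box C/D members, 0 of 28 box H/ACA members and 1.02% of all 141767 GENCODE transcripts. CTGA stood in the last 30 bases of 15 of 15, 3 of 28 and 14.0% of them. Snord22, the U22 RNA, held CTGA but not TGATGA in these windows. In box H/ACA RNAs and in the Cajal body RNA Scarna13, capitals mark ACA in the last 8 bases.
Snora78: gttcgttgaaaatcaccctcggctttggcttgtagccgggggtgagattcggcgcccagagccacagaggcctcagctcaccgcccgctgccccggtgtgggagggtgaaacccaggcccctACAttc
Snora17: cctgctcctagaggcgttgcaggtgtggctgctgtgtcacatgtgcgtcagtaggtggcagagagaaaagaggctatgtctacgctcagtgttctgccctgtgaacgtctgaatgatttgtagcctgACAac
Scarna13: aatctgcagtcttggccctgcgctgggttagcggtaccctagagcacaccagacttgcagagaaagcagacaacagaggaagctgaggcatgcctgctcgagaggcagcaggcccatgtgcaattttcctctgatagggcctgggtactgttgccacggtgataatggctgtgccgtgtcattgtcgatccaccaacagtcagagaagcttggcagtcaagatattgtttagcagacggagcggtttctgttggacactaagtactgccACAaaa
ACA stood there in 26 of 28 box H/ACA members, 1 of 15 box C/D members and 11.5% of all transcripts. For Rmrp the whole RNA is given, without capitals, and for Terc the first 150 of 423 bases, with the first CTAACCC in capitals, the template side of the telomere repeat.
Rmrp: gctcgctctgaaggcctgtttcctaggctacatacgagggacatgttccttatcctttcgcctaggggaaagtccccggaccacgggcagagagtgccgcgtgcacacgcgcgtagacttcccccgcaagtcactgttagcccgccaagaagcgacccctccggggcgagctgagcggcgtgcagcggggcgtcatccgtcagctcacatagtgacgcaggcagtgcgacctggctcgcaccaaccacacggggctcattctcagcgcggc
Terc: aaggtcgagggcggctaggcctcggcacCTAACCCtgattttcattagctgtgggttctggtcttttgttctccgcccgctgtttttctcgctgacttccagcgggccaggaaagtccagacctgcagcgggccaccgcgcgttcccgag

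The libraries differed in the RNA of cell type markers before any small RNA was considered. They held 9678682 and 5635945 reads under DMBA, against 5551937 and 7662159 at 1 week, in the order replicate 1, replicate 2 that is kept throughout. Levels are scaled CPM, reads relative to a scaled library size, as the authors deposited them. The sort antigen gene Cdh3 was at 325.5 and 3.231 scaled CPM under DMBA, against 42.82 and 30.38 at 1 week. Of the marker lists, all 6 epithelial genes were highest in on-DMBA replicate 1, and all 5 leukocyte, 5 fibroblast and 5 endothelial genes were lowest there. Summed leukocyte markers were 9.025 scaled CPM in that library and 11820 in on-DMBA replicate 2, with 4591 and 8880 at 1 week. Summed fibroblast markers were 122.9 and 29990 under DMBA, against 31660 and 35630 at 1 week, and summed endothelial markers 4.869 and 138.9, against 454.5 and 932.2. Summed epithelial markers were 40540 and 473.8 scaled CPM under DMBA, against 3573 and 3024 at 1 week. Markers of other cells were thus low in on-DMBA replicate 1, while the other 3 libraries carried many transcripts of other cells. Among those 3, on-DMBA replicate 2 had the lowest epithelial sum. In such bulk RNA, fewer cells of a type and less RNA per cell cannot be told apart, and the part that cell content had in the differences below was not tested.

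Most of the small RNA genes were barely sampled. Of 54 members, 50 had at least 1 read in some library, 33 reached the floor of 3 reads in at least 1 library and 12 reached it in all 4. The 4 members at 0 in every library were Scarna8, Snora62, Snord123 and Snord35b. For 11 members the best library held exactly 3 reads, among them Scarna6, Rnu11 and Rnu12, and for 8 it held 2 reads, among them Snora31 and Snora75. All values from so few reads cover counting error only, and their group differences are not detectable at this depth.

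At the depth sequenced, the number of members at the floor differed most between the mice on DMBA. It was 26 and 14 under DMBA, against 19 and 19 at 1 week. Had every library had the depth of the shallowest, the expected numbers would be 18.6 and 13.8 under DMBA, against 19 and 14.9 at 1 week, an alternative chosen after seeing the data. At equal depth on-DMBA replicate 1 was thus level with 1-week replicate 1 and above the other 2 libraries, and on-DMBA replicate 2 was the lowest either way. Of the 33 members at the floor, 20 had their highest level in on-DMBA replicate 1 and 3 in on-DMBA replicate 2. At 1 week 4 had it in replicate 1 and 6 in replicate 2. For 8 members, all but 1 of them small nucleolar RNAs, the floor was reached in on-DMBA replicate 1 alone. A floor in reads is reached most easily in the deepest library, which is on-DMBA replicate 1, and this can raise its counts. Over all genes tested, 41.7% were highest in that library, and nothing is read from the members' counts.

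**Figure D1:**
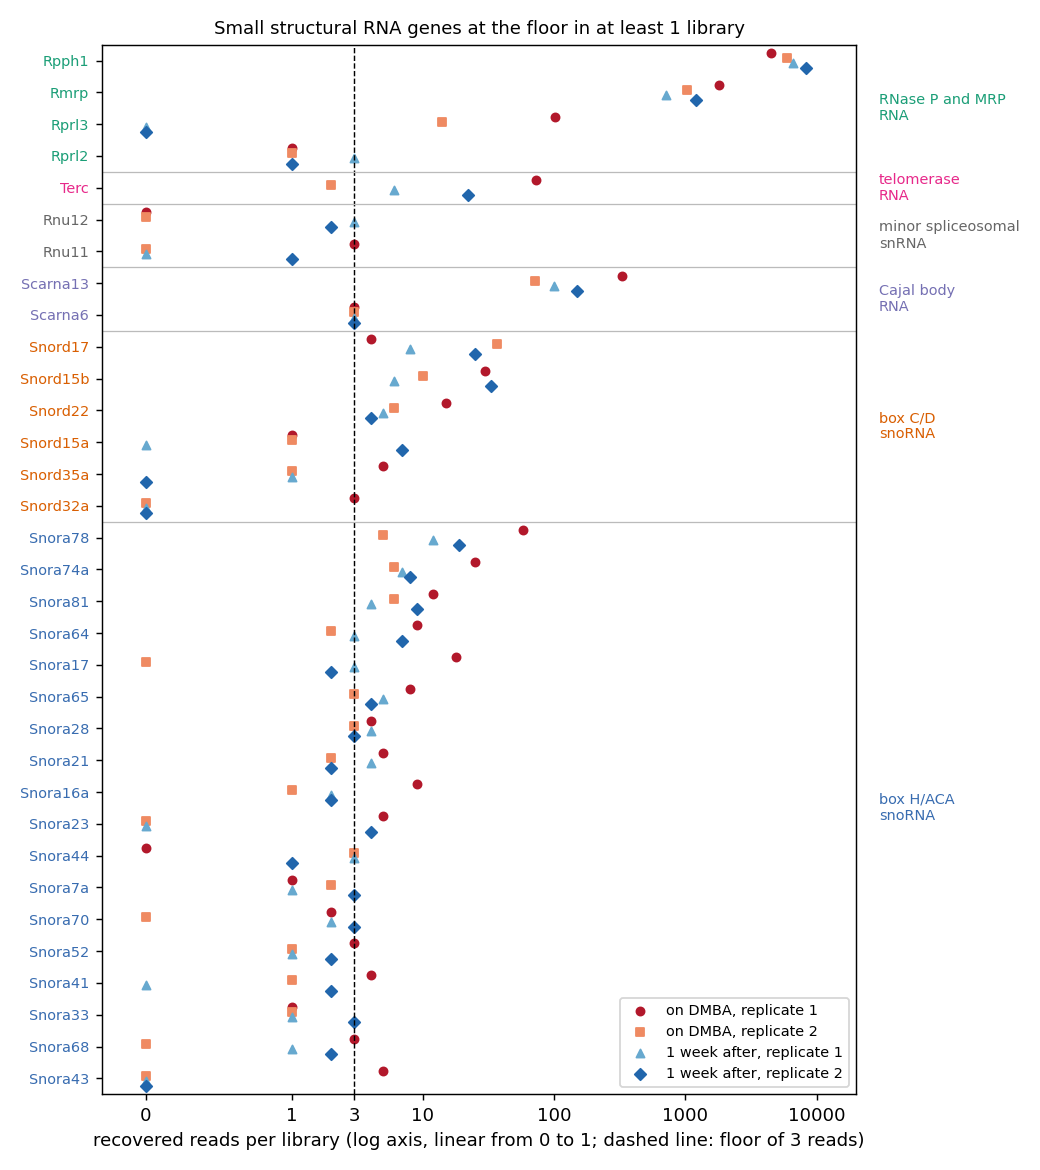
Recovered reads (horizontal log axis, linear between 0 and 1) of the 33 members at or above 3 reads (dashed line) in at least 1 library, grouped by RNA class, with 1 symbol per library. Rpph1 and Rmrp stand far to the right, and on-DMBA replicate 1 lies farthest right in most other rows.

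Longer members were sampled more often. Of the 8 members of up to 100 bases, 0 reached the floor in all 4 libraries, and their highest count in any library was 5 reads. Of the 33 members of 101 to 150 bases 5 did so, with a highest count of 58, and of the 13 longer members 7 did so, with a highest count of 8235. All 8 of the shortest members are box C/D RNAs. Length, class and the library protocol go together in this table, and the part of each was not tested.

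**Figure D2:**
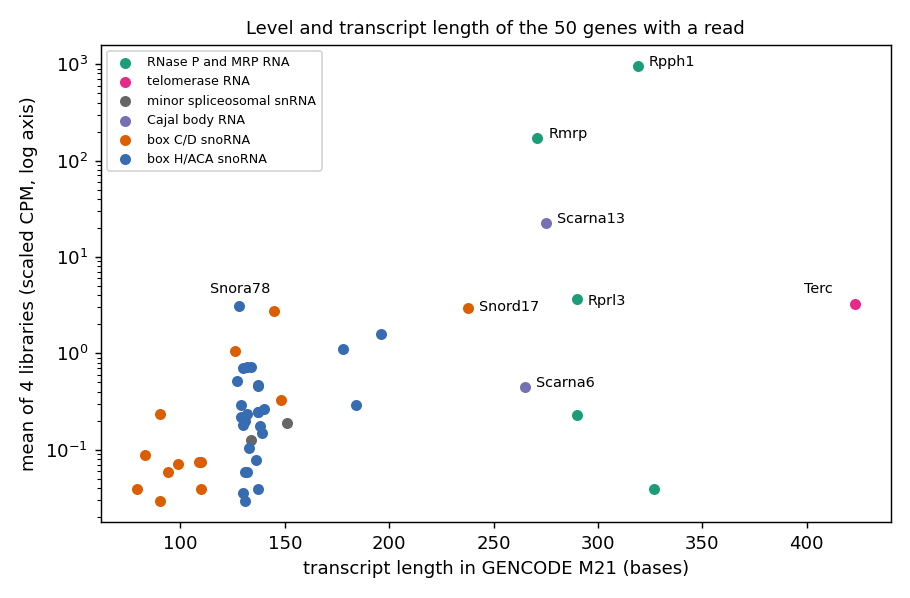
Mean level of the 4 libraries (scaled CPM, log axis) against transcript length in bases for the 50 members with a read, coloured by RNA class. The box C/D members of up to 100 bases lie at the bottom left, and the RNase P, MRP and Cajal body RNAs at 265 bases or more hold both the highest and some of the lowest levels.

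A pair of genes held nearly all of the family's reads. All members together had 7030 and 7141 reads under DMBA, against 7471 and 9780 at 1 week, which is 0.0726% and 0.127% of all reads under DMBA, against 0.135% and 0.128% at 1 week. Rpph1 and Rmrp made up 89.25% of member reads in on-DMBA replicate 1 (95% exact binomial interval 88.5% to 89.96%), 97.4% in replicate 2, and 97.38% and 96.62% at 1 week. The other 52 members shared 756 and 186 reads under DMBA, against 196 and 331 at 1 week. On-DMBA replicate 1 thus stood apart in both respects, with the smallest share of reads from the family and the largest count outside the leading pair.

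Per 100 bases of RNA, Rpph1 was the highest member with a mean of 297.5 scaled CPM over the 4 libraries, followed by Rmrp with 62.91. Scarna13 was at 8.086 and Snora78 at 2.416 on the same per-length scale, and Terc was at 0.7744.

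Rpph1 was lowest in on-DMBA replicate 1 and alike in the other libraries. It had 4473 and 5930 reads under DMBA, against 6565 and 8235 at 1 week, which is 531.1 and 1064 scaled CPM under DMBA, against 1026 and 1175 at 1 week. The groups overlapped, since on-DMBA replicate 2 lay above 1-week replicate 1. The log2 difference, 1 week minus on DMBA, on log2(scaled CPM + 0.5) was 0.55 (SE 0.79), and it was 0.04 without on-DMBA replicate 1. With each library divided by its own total (plain CPM), the values were 462.1 and 1052 under DMBA, against 1182 and 1075 at 1 week, and the groups did not overlap. In GENCODE M21 Rpph1 overlaps an exon of Ccnb1ip1 on the same strand, but that gene was at 5.581 and 0 scaled CPM under DMBA, against 1.407 and 0.1426 at 1 week, far below Rpph1.

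Rmrp was lower at 1 week in both libraries. It had 1801 and 1025 reads under DMBA, against 710 and 1214 at 1 week, which is 213.9 and 184 scaled CPM under DMBA, against 111 and 173.2 at 1 week. The groups did not overlap in this scaling or in plain CPM, by a narrow margin between on-DMBA replicate 2 and 1-week replicate 2. The log2 difference was -0.52 (SE 0.54), smaller than its standard error, and it was -0.195 without 1-week replicate 1 and -0.835 without 1-week replicate 2. Rmrp lies opposite an exon of Ccdc107, which was at 16.39 and 16.87 scaled CPM under DMBA, against 14.85 and 20.25 at 1 week. Whether the counting used strand is not given in the sources used here, so reads of that pair might not have been kept apart.

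The balance between the 2 related RNAs varied between mice of the same group and between groups. The ratio of Rpph1 to Rmrp reads, which needs no library scaling, was 2.48 and 5.79 under DMBA, against 9.25 and 6.78 at 1 week. Both 1-week ratios lay above both on-DMBA ratios. With 2 mice against 2 an exact two-sided permutation test cannot give a p under 0.333, and the order is given as a description.

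Rprl3, an annotated copy of the RNase P RNA gene, was seen only on DMBA. It had 101 and 14 reads under DMBA, against 0 and 0 at 1 week, which is 11.99 and 2.513 scaled CPM on DMBA. The mean floor of the 1-week libraries, 3 reads per library, was 0.448 scaled CPM. The observed on-DMBA mean was 16.2-fold above that floor, with 26.7-fold for replicate 1 and 5.6-fold for replicate 2. These ratios leave out the counting error of the on-DMBA reads. Of the reads on Rprl3 and Rpph1 together, Rprl3 held 2.21% in on-DMBA replicate 1 (95% exact binomial interval 1.8% to 2.68%). In on-DMBA replicate 2 its share was 0.236% (0.129% to 0.395%). The counts of 0 at 1 week allow shares of up to 0.0457% and 0.0364% by the limit of 3 reads, and the upper ends of the same two-sided 95% intervals were 0.0562% and 0.0448%. Replicate 1 was itself 4.77-fold above replicate 2 in scaled CPM. Rprl3 passed the filter on low values only through the on-DMBA libraries.

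The other copies did not share this pattern. Rprl2 had 1 and 1 reads under DMBA, against 3 and 1 at 1 week, and Rprl1 had 0 and 0 under DMBA, against 1 and 0 at 1 week. In the aligned stretch Rprl3 differs from Rpph1 by the 21 absent bases and the bases shown in capitals, and the bases beyond that stretch did not align. How the counting assigned shared reads is not known here, so the values of Rprl3 are uncertain, and the part of shared reads was not tested. Rpph1 was lowest where Rprl3 was highest, in on-DMBA replicate 1, with 4473 reads beside 101 of Rprl3. A link between these values was not tested.

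**Figure D3:**
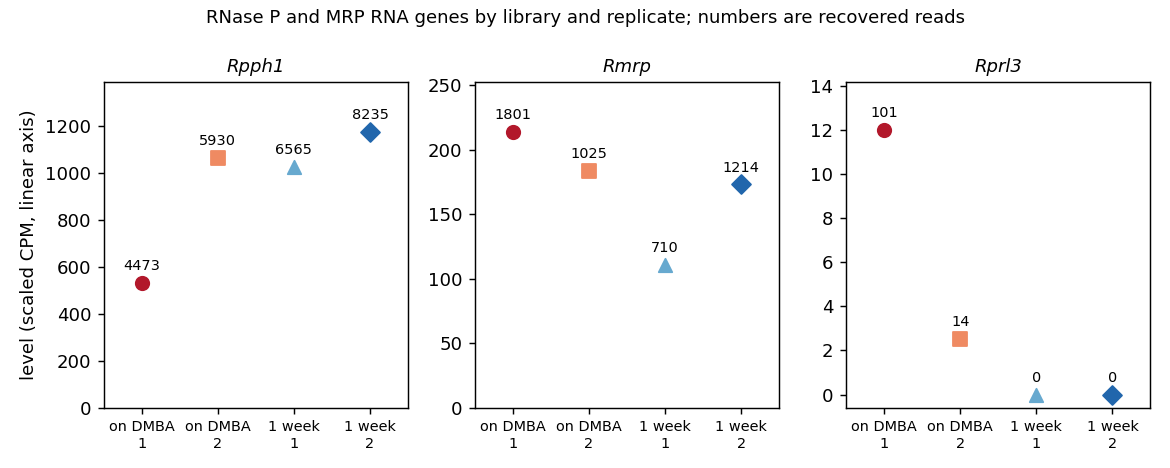
Levels (scaled CPM, linear axes that differ between panels) of Rpph1, Rmrp and Rprl3 in the 4 libraries, 1 point each with its recovered reads printed above. Rprl3 has 101 and 14 reads on DMBA and 0 in both 1-week libraries, while Rpph1 is lowest in on-DMBA replicate 1.

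Terc was high in a single library. It had 73 and 2 reads under DMBA, against 6 and 22 at 1 week, which is 8.668 and 0.3589 scaled CPM under DMBA, against 0.9377 and 3.138 at 1 week. Its on-DMBA libraries were the extremes and enclosed both 1-week libraries, and the log2 difference was -0.30 (SE 1.33), which turned to 0.37 without 1-week replicate 1. Tert, the catalytic protein of telomerase, was at 5.581 and 1.795 scaled CPM under DMBA, against 4.845 and 2.139 at 1 week, also highest in replicate 1 and lowest in replicate 2 on DMBA.

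Scarna13, also known as U93 and lying in an intron of the noncoding host Snhg10, was the most abundant guide RNA. It had 330 and 71 reads under DMBA, against 100 and 150 at 1 week, which is 39.19 and 12.74 scaled CPM under DMBA, against 15.63 and 21.39 at 1 week. On-DMBA replicate 1 was 3.08-fold above replicate 2, and both 1-week libraries lay between them, for a log2 difference of -0.29 (SE 0.73), which turned to 0.51 without on-DMBA replicate 1. The annotated host Snhg10 had the reverse order of libraries on DMBA, with 0.475 and 1.974 scaled CPM, and 1.563 and 1.141 at 1 week. Its level was low, and in on-DMBA replicate 1 it was close to the floor of 3 reads, which is 0.356 scaled CPM there. Scarna6 had exactly 3 reads in each of the 4 libraries.

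Among box H/ACA RNAs the highest level was again in on-DMBA replicate 1 for all 3 members that passed the filter. Snora78, in an intron of Snhg9, had 58 and 5 reads under DMBA, against 12 and 19 at 1 week, 6.887 and 0.8974 scaled CPM against 1.875 and 2.71. Snora74a, the U19 RNA, had 25 and 6 reads under DMBA, against 7 and 8 at 1 week. Snora81, hosted by the translation factor gene Eif4a2, had 12 and 6 reads under DMBA, against 4 and 9 at 1 week. The 2 groups overlapped for each of them. The class summed to 21.73 and 7 scaled CPM under DMBA, against 8.908 and 11.41 at 1 week, so on-DMBA replicate 2 was lowest and replicate 1 highest.

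Lower box H/ACA members gave the same order of the on-DMBA libraries more than once. Snora17 had 18 and 0 reads under DMBA, against 3 and 2 at 1 week. Snora64, in the ribosomal protein gene Rps2, had 9 and 2 reads under DMBA, against 3 and 7 at 1 week. Snora65, in Rpl12, had 8 and 3 under DMBA, against 5 and 4 at 1 week. Even values were found too, as for Snora28, hosted by Eif5, with 4 and 3 reads under DMBA, against 4 and 3 at 1 week. Snora21, in Rpl23, had 5 and 2 under DMBA, against 4 and 2 at 1 week.

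Box C/D RNAs had no common order. Snord17, in an intron of the sorting nexin gene Snx5, had another order, with 4 and 37 reads under DMBA, against 8 and 25 at 1 week, which is 0.475 and 6.641 scaled CPM against 1.25 and 3.566. It was lowest in on-DMBA replicate 1, and its host Snx5 was highest in the same library as Snord17, with 362.1 and 831.1 scaled CPM under DMBA, against 322 and 505.2 at 1 week. Snord22, in the host Snhg1, had 15 and 6 reads under DMBA, against 5 and 4 at 1 week, 1.781 and 1.077 scaled CPM against 0.7814 and 0.5705. Its groups did not overlap, yet the lower on-DMBA library and the higher 1-week library differed by 1 read, and the log2 difference was -0.70 (SE 0.72). Like Rprl3, Snord22 passed the filter on low values only through the on-DMBA libraries. Snhg1 was at 66.97 and 12.38 scaled CPM under DMBA, against 15.79 and 26.1 at 1 week, and its groups overlapped.

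The sister RNAs of the Rps3 gene were unequal in depth. Snord15b had 30 and 10 reads under DMBA, against 6 and 33 at 1 week, while Snord15a had 1 and 1 under DMBA, against 0 and 7 at 1 week. Both were highest in 1-week replicate 2, whereas Rps3 was highest in on-DMBA replicate 1, at 1780 and 776.8 scaled CPM under DMBA, against 712 and 1266 at 1 week. Snord35a and Snord32a, both in Rpl13a, had 5 and 3 reads in on-DMBA replicate 1 and at most 1 read in any other library. Snord89 had 1 read in each 1-week library, and Snord23 1 in each on-DMBA library. The class summed to 7.362 and 10.05 scaled CPM under DMBA, against 3.595 and 10.27 at 1 week, with 1-week replicate 1 the lowest.

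The minor spliceosomal RNAs, which serve the rare introns spliced by the second spliceosome, were at the edge of detection. Rnu12 had 0 and 0 reads under DMBA, against 3 and 2 at 1 week, and Rnu11 had 3 and 0 under DMBA, against 0 and 1 at 1 week. The limit of 3 reads covers each of these values, so no difference is read from them.

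Beyond the guide RNAs, the host genes gave a check on the libraries from rows that the choice of members did not use. Of the 46 small nucleolar and Cajal body members, 44 lie inside a gene on the same strand in GENCODE M21, 24 in an intron of every transcript and 20 overlapping an exon of some transcript. Reads of the second kind may come from the spliced host, and Snord22, Snord15b, Snora81, Snora64, Snora65 and Snora28 are among that kind. Snora17 and Snora43 lie inside no gene on the same strand. For 37 members the host is a row of the table, 34 distinct genes. Of these genes 29 were highest in on-DMBA replicate 1, where 41.7% of all genes tested were. All 17 ribosomal protein hosts, which carry 19 members, were among the 29. Of the 23 members at the floor with a host in the table, 13 were highest in that library themselves, a count that the floor in reads can raise.

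Of the 54 members, 11 passed the filter of 1 scaled CPM in at least 2 libraries, and 9 of those were at the floor in all 4. None passed limma at an adjusted p under 0.05, 0 of 11, where 0.0% of the 15419 genes tested did. At an unadjusted p under 0.05 there was 1 member, Rprl3, where 2.48% of all genes were. The count test edgeR on recovered reads called 0 members and 0.0% of genes, and DESeq2 called 1, Rprl3, beside 0.123% of genes. Nothing is read from these counts, since the same contrast was known when the family was chosen. The p-values set the group difference against the spread within the groups of these 4 mice only.

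The members' log2 differences ran from -3.62 (SE 0.94) for Rprl3, a value that depends on the added 0.5, to 0.55 for Rpph1. Their median was -0.30, beside -0.02 over all genes tested. By library, 8 of 11 were highest in on-DMBA replicate 1, where 41.7% of all genes tested were. The groups did not overlap for 3 members lower at 1 week (Rprl3, Snord22 and Rmrp) and 0 higher, where 9.14% of all genes were lower and 14.0% higher without overlap. In plain CPM it was 3 lower and 1 higher (Rpph1), where 8.17% and 17.0% of all genes were. Rprl3 and Snord22 passed the filter only through the on-DMBA libraries, which fixed their order in scaled CPM in advance. No result is taken from these counts of groups without overlap. Between the on-DMBA mice the members' median absolute log2 difference was 1.14, beside 1.02 over all genes, and between the 1-week mice it was 0.44, beside 0.51.

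Leaving out either on-DMBA library changed these values. Without on-DMBA replicate 1 the median of the 8 members still tested was 0.04, and 0 were called where 3.43% of genes were. Without on-DMBA replicate 2 it was -0.62 over 9 members, and 1 was called, Terc, lower at 1 week, where 26.7% of genes were called and 10.9% were called lower. In those fits the lone on-DMBA library was assumed to vary like the 1-week libraries.

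The protein partners of the small RNAs were described as a set of genes that are not members. Over 14 lists, 157 genes were tested, from the proteins of the snoRNA particles to RNA polymerase III and the nuclear exosome, and 0 passed in limma (0 at an unadjusted p under 0.05), 0 in edgeR and 0 in DESeq2. The groups did not overlap for 13 genes lower and 6 higher, where 9.14% of all genes were lower and 14.0% higher without overlap. The median log2 difference was -0.35, and all 14 list medians were under 0. By library, 130 of 157 (82.8%) were highest in on-DMBA replicate 1, where 41.7% of all tested genes were, and all 14 lists had their highest median there.

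All 5 box C/D proteins and all 8 box H/ACA and telomerase proteins were highest in on-DMBA replicate 1. Fbl, the methyltransferase fibrillarin, was at 125.5 and 18.49 scaled CPM under DMBA, against 19.85 and 28.67 at 1 week (log2 difference -1.01, SE 0.99). Dkc1, the pseudouridine synthase dyskerin, was at 155.1 and 14.18 under DMBA, against 16.1 and 30.52 at 1 week. For Fbl and for Dkc1 on-DMBA replicate 2 was below both 1-week libraries. Of 9 tested assembly factors 7 were highest in that library and 1 was lowest there. Among them Znhit6 was at 16.27 and 5.025 under DMBA, against 3.751 and 5.99 at 1 week, and Tgs1, the cap hypermethylase of small RNAs, was at 42.99 and 40.92 under DMBA, against 20.47 and 27.96 at 1 week. Tgs1 had on-DMBA values that were close and above both 1-week values, and it did not pass.

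None of the proteins of RNase P and MRP passed. Of 10 tested genes 7 were highest in on-DMBA replicate 1, and the median log2 difference was -0.105. Rpp21 was at 7.956 and 3.589 scaled CPM under DMBA, against 10.31 and 8.986 at 1 week, higher at 1 week without overlap. Rpp30 was at 23.63 and 11.49 under DMBA, against 6.877 and 14.26 at 1 week. The level of Rpph1 RNA, lowest in on-DMBA replicate 1, did not share the order of most of its proteins.

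RNA polymerase III, which transcribes Rpph1 and Rmrp, had 12 of 13 tested subunits highest in on-DMBA replicate 1. Polr3g, the subunit of the form found in stem and tumour cells, was at 101.4 and 6.82 scaled CPM under DMBA, against 9.221 and 9.271 at 1 week. Polr3b was at 97.37 and 31.59 under DMBA, against 25.79 and 37.51 at 1 week. Of the promoter factors, Bdp1 was at 158 and 67.12 under DMBA, against 50.48 and 83.29 at 1 week, and Pou2f1 at 46.19 and 30.87 under DMBA, against 17.66 and 21.11 at 1 week. Pou2f1 was lower at 1 week without overlap and did not pass.

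The spliceosomal, trimming and assembly partners followed. Of 32 tested Sm and snRNP proteins 27 were highest in on-DMBA replicate 1, such as Snrpd3, at 44.77 and 4.128 scaled CPM under DMBA, against 4.063 and 5.705 at 1 week, and Prpf8, at 560.5 and 186.3 under DMBA, against 159.1 and 211.8 at 1 week. All 18 tested genes of the nuclear exosome and 3 prime trimming were highest there, with Dis3 at 77.78 and 13.46 under DMBA, against 11.88 and 19.68 at 1 week. Integrator, which cuts the ends of small nuclear RNAs, had 12 of 12. The 7SK particle did not follow, with 3 of 7 highest and 3 of 7 lowest in that library, and Hexim2 was at 1.662 and 3.41 under DMBA, against 6.72 and 3.994 at 1 week. Of 8 tested genes of the signal recognition particle 4 were highest in that library and 1 was lowest there, Srp54a, at 1.544, beside 5.564 in replicate 2 and 6.251 and 4.849 at 1 week.

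Among the noncoding hosts of snoRNAs 8 of 10 tested were highest in on-DMBA replicate 1. Snhg3 was at 18.29 and 5.205 scaled CPM under DMBA, against 3.907 and 4.279 at 1 week. Snhg12, which carries Snora16a and Snora44, was at 28.85 and 7.717 under DMBA, against 7.033 and 6.846 at 1 week. Snora16a had 9 and 1 reads under DMBA, against 2 and 2 at 1 week. Snora44 had 0 and 3 reads under DMBA, against 3 and 1 at 1 week. Neither host passed, and the reads of these guides are too few to compare their order with that of the host.

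**Figure D4:**
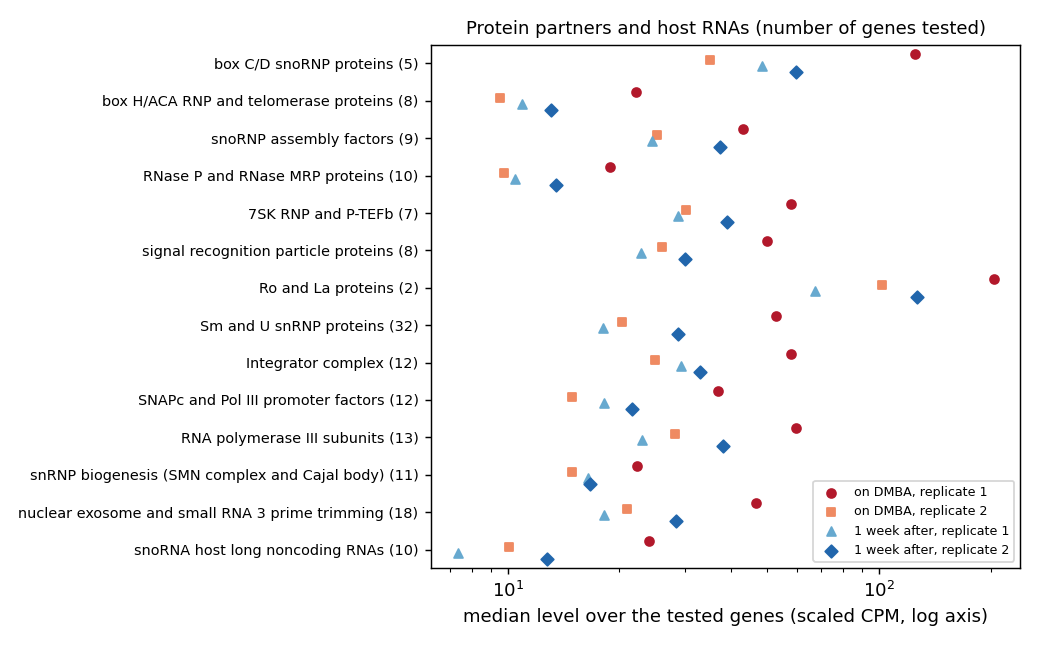
Median level (scaled CPM, log axis) of each of the 14 partner lists in the 4 libraries, with the number of genes tested in brackets. The median of on-DMBA replicate 1 is the highest of the 4 in every list.

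Without on-DMBA replicate 1 the median partner difference was 0.14 and 0 of 157 passed, where 3.43% of all genes did. Without on-DMBA replicate 2 it was -0.97 and 32 of 156 passed, all lower at 1 week, where 10.9% of all genes were called lower. The summed epithelial markers moved with that library, at 40540 scaled CPM against 473.8 in on-DMBA replicate 2 and 3573 and 3024 at 1 week, and their part in the partner differences was not tested.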

How the data were processed

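RNA of sorted cells was extracted with a Qiagen column kit, depleted of ribosomal RNA and made into strand-marked libraries, per the labels' protocols. Per the submitters' processing notes, mm9, edgeR 3.2.3, HTSeq, TopHat2 2.1 and CASAVA 1.8.2 were used, in roles not stated. Read length, strand setting and annotation were not given in the sources used here. As deposited by the authors, the data are 1 table of normalised signal, named CPM. Its columns sum to 1149287, 1011509, 867697 and 1092838, so the unit is taken as signal against a scaled library size (scaled CPM), where the plan had assumed CPM, and the log-scale test was kept. Reads were recovered by dividing by the smallest non-zero value, and 100% of values came out whole at a tolerance of 0.01. Rn45s, ribosomal RNA, took 6.17%, 4.77%, 3.95% and 3.35% of reads.

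The test was limma 3.58.1 (R 4.3.3) with a trend on log2(scaled CPM + 0.5), genes at 1 or more in at least 2 libraries, two-sided, at a Benjamini-Hochberg adjusted p under 0.05 over 15419 genes. edgeR 4.0.16 called 0 and DESeq2 1.42.0 called 19 genes on recovered reads. Fold changes understate low genes. Intervals are exact binomial at 95%, and they and the floor of 3 reads (0.356, 0.538, 0.469 and 0.428 scaled CPM) cover counting error only. Sequences and hosts come from GENCODE M21 (GRCm38). Since the build of the table is mm9, no coordinates are printed. Alignments used Biopython 1.88 with a gap opening penalty of 9, chosen after seeing that a penalty of 5 split the missing bases of Rprl3 (identity 94.1%).

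Members and lists were chosen with earlier results of these data known. Named were the RNase, telomerase and spliceosomal members at the floor, the 8 highest Snord and Snora and the 6 highest Scarna members, up to 6 members in each direction without overlap and with the higher group at the floor, their hosts, and the 2 partner genes with the smallest p in each list. Others were named after their values were seen, among them Snora16a, Snora44, Tert, Ccnb1ip1 and Ccdc107. The fits were tested on simulated data. The mice were different animals. Alternatives were other pseudocounts, filters, scalings and floors, eBayes without the trend, a replicate block, each library left out, edgeR and DESeq2.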

Additional observations from a re-analysis of the deposited data

How the results depend on the processing

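The counts of calls rested on single libraries and on the tool. Over all genes limma called 0, and 0 to 3894 when 1 library was left out. DESeq2 called 19. Replicate numbers name different mice and same-numbered libraries did not deviate together (r = 0.02 across genes), so the pairing is in number only. With the replicate block 288 genes passed and 0 small RNA genes. Small RNA genes called were 1 in DESeq2 (Rprl3) and 0 to 1 with 1 library left out, and partner genes called were 0 to 32 with 1 library left out. The median of the small RNA genes, -0.30, ran from -0.62 to 0.04 with 1 library left out, so its sign depended on on-DMBA replicate 1, and it was -0.0013 without 1-week replicate 1. A floor of 1 read gave 40 and 29 genes on DMBA and 33 and 34 at 1 week, and a floor of 10 reads gave 11 and 6 on DMBA and 4 and 7 at 1 week. No ratio was formed for the spliceosomal class, which is at 0 in 1 library. The 5 other class sums kept their direction in each scaling. With 1 library left out the log2 differences of 7 of 11 tested members changed sign, with ranges of -1.08 to 0.505 for Scarna13, -1.42 to 0.983 for Snora78, -1.10 to 0.0366 for Snora74a, -0.631 to 0.0339 for Snora81, -1.09 to 0.77 for Snord15b, -1.42 to 1.45 for Snord17 and -2.0 to 0.374 for Terc. Rpph1 and Rmrp kept their sign, as did Rprl3 and Snord22, which could be fitted only with a 1-week library left out. Under the other alternatives 2 members changed sign, Snord17 and Snord15b. Without on-DMBA replicate 1 the log2 differences of 9 named partners changed sign. With 1 library left out they ran from -2.37 to 0.36 for Fbl, -2.15 to 0.665 for Nop58, -2.78 to 0.63 for Dkc1, -2.67 to 0.0904 for Gar1, -0.0129 to 1.56 for Srp54a, -1.42 to 0.00807 for Ssb, -3.09 to 0.20 for Snrpd3, -3.39 to 0.41 for Polr3g and -2.31 to 0.18 for Dis3. The causes of these changes were not tested. Depth limits most members, since 43 of 54 were too low to test.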
